A study of Mus musculus with 19 samples.

Results

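Cytosolic ribosomal protein genes encode the proteins that, with ribosomal RNA, build the ribosome outside mitochondria. They were followed here in the striatum of male mice aged 4 months. Members were the protein-coding genes in the authors' deposited comparison tables whose symbol starts with Rpl or Rps followed by a digit, together with Rplp0, Rplp1, Rplp2 and Rpsa. S6 kinases (Rps6k), Rps19bp1 and symbols containing -ps were left out. This gave 84 genes, of 49592 rows counted and 22901 genes named in the deposited tables. By symbol alone, 47 of the 84 were counted with the large subunit, 34 with the small subunit and 3 with the stalk. Whether the product of each member is part of the ribosome was not checked. All but Rps23rg1, with 0 to 21 counts per library, passed the filter on low counts, so 83 members were among the 21513 genes tested.

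All 19 mice were D2RCre_floxCas9-EGFP animals, in which Cas9 and EGFP are made in cells with Cre driven by the D2 dopamine receptor gene. PFC_D2R-KO mice, called knockout below, had received AAV5 D2R-sgRNA in the medial prefrontal cortex (mPFC), and control mice had received AAV5 syn-mCherry there. Starting 3 weeks after surgery they were given saline for 5 days and then, on day 9, either amphetamine at 3 mg/kg or saline. The protocol gives killing at 90 min after the last injection for amphetamine. The 4 groups were amphetamine knockout (n = 4), saline knockout (n = 5), amphetamine control (n = 5) and saline control (n = 5), each mouse being 1 library of total striatal RNA. The design asks whether amphetamine, and loss of the D2 receptor from prefrontal D2 cells, changes striatal expression. The edit was made in the prefrontal cortex, whose RNA was not measured here, so the striatal level of Drd2 (34.1 to 121 CPM in amphetamine knockout, 76.9 to 126 in saline knockout, 141 to 200 in amphetamine control and 85.3 to 154 in saline control) does not check it. Levels in CPM are counts scaled to the library total after TMM normalization.

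Ribosomal proteins are made in nearly matching amounts, since each ribosome takes a single copy of most of them. The stalk, which carries acidic P1 and P2 dimers on P0, recruits the translation factors that use GTP. Many messages of the family begin with a run of pyrimidines, the terminal oligopyrimidine (TOP) tract, through which the mTOR kinase pathway adjusts their translation. In neurons, ribosomal protein messages are found in the cell body and also in dendrites and axons, where translation can be local. Amphetamine releases dopamine, to which the projection neurons of the striatum respond.

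Of the 84 members, 64 had an entry in the RefSeq promoter table (build GRCm38.p6), and the sequence around the annotated transcription start was searched for the TOP-type feature. A run of 8 or more letters that are each C or T, on the transcript strand within 20 bases on either side of the start, was present in 31 of the 64 members (48.4%). Among all 27025 genes in the table it was present in 4965 (18.4%). It was present in 18 of 36 large-subunit and 12 of 26 small-subunit members, and 7 of 13 other translation genes listed for TOP messages (53.8%) held such a run. The following members, shown because the results below turn on them or because they are among the highest or the named members, have a run inside the 15 bases on each side of the start, written 5′ to 3′ with the run in capitals.
Rpl27a, chr7:109519180-109519209, plus strand: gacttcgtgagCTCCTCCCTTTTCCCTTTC
Rpl13a, chr7:45128731-45128760, minus strand: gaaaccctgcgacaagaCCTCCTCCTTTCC
Rplp2, chr7:141447636-141447665, plus strand: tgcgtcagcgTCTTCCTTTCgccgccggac
Rps15a, chr7:118116133-118116162, minus strand: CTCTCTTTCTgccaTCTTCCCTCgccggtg
Rpl39, chrX:37085208-37085237, minus strand: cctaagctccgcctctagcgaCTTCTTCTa
Others that the results below turn on had no run of that length in the same window.
Rpl41, chr10:128549154-128549183, minus strand: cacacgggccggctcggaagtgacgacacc
Rpsa, chr9:120127751-120127780, plus strand: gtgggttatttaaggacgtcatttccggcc
Rpl7l1, chr17:46782642-46782671, minus strand: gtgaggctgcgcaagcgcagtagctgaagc
A match is a description of the letters and not a mapped start site. The start in use in striatum was not measured.

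Transcript levels, compared per length as the authors' FPKM (fragments relative to gene length and to the library total), ranged over the family in saline control mice with a median of 157 FPKM. The stalk protein gene Rplp1 was the highest at 867 FPKM. It was followed by Rps15, of the small-subunit head, at 512, Rpl13a at 482, Rps21 at 411 and Rpl19 at 397 FPKM. Rplp2, the dimer partner of Rplp1, had 127 ± 9.15 FPKM and Rplp0 144 ± 16.5 FPKM (SD, n = 5), so the stalk genes were far apart in this measure. FPKM divides by gene length, which the counts imply to be 499, 964 and 1358 bp for Rplp1, Rplp2 and Rplp0. In CPM, which does not, their saline control means were 432, 122 and 195. The order of members by FPKM thus depends on the length used. Leaving aside the paralogs and retrogenes described next, 77 members lay between 30.1 and 867 FPKM.

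**Figure D1:**
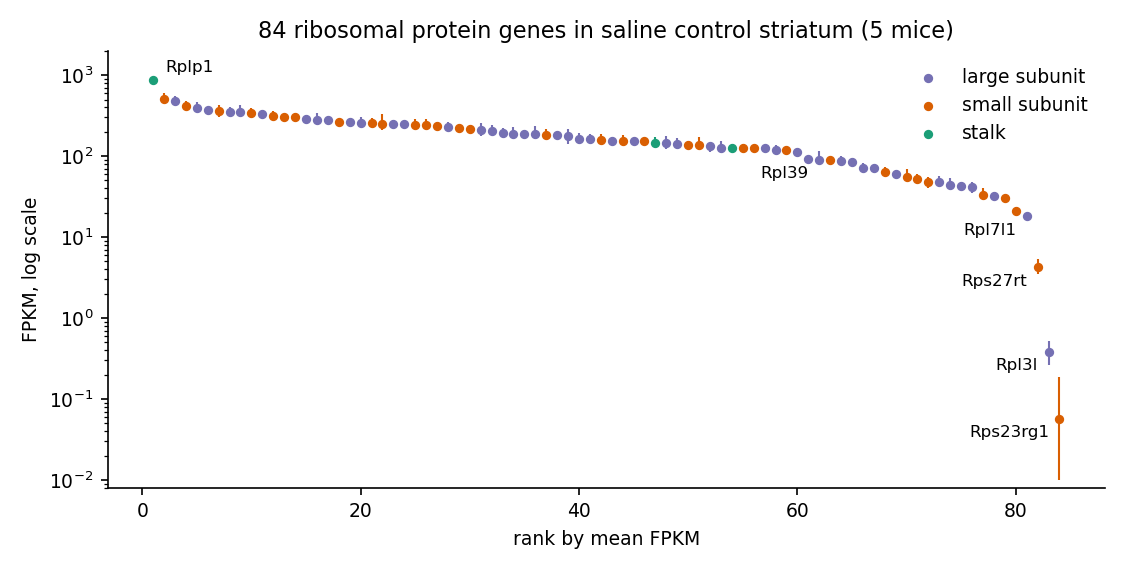
The authors' FPKM (log axis) of 84 ribosomal protein genes in saline control striatum, in rank order, with points for the mean of 5 mice and lines from the lowest to the highest mouse; a line that reaches 0 is drawn to the foot of the axis. Rplp1 is highest at 867 FPKM, and Rps27rt, Rpl3l and Rps23rg1 lie below 5 FPKM.

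The lowest members were paralogs or retrogene copies. Rps23rg1 averaged 0.0573 FPKM, Rpl3l, the heart and skeletal muscle paralog of Rpl3, 0.384, Rps27rt 4.26, Rpl7l1 18.1 and Rps27l 20.9 FPKM in saline control mice. Set against its parent gene in the same libraries, Rpl3l stood at 0.106 ± 0.0600% of Rpl3 in amphetamine knockout, 0.0867 ± 0.0162% in saline knockout, 0.137 ± 0.0525% in amphetamine control and 0.11 ± 0.019% in saline control mice. The muscle form was thus at a trace level in every group. Rpl22l1, the paralog of the large-subunit protein gene Rpl22, was the exception among the paralogs. It reached 97.2 ± 11.3% of Rpl22 in amphetamine knockout, 112 ± 12.7% in saline knockout, 99.7 ± 19.7% in amphetamine control and 108 ± 9.06% in saline control mice, so both forms were present at like levels. In the 4 group means Rpl36al lay between 35.8% and 38.5% of Rpl36a, Rpl7l1 between 9.43% and 9.81% of Rpl7, Rps27l between 8.55% and 8.97% of Rps27, and Rps27rt between 1.62% and 1.74% of Rps27. These ratios were not tested between groups. The sources used here do not give how reads that match both a parent and a near-identical copy were assigned, and the values of retrogenes and paralogs are uncertain. Rows of 117 -ps pseudogenes held counts equal to 0.433% to 0.502% of the members' counts.

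Library totals ran from 57003408 to 85536346 counts, with 27591 to 29281 genes detected. The 84 genes together took 1.68%, 1.98%, 1.65% and 1.58% of all counts in amphetamine knockout mice 1 to 4. In saline knockout mice 1 to 5 the share was 1.85%, 1.78%, 2.84%, 1.69% and 1.63%. Amphetamine control mice 1 to 5 had 1.77%, 1.49%, 1.60%, 1.62% and 1.66%, and saline control mice 1 to 5 had 1.62%, 1.68%, 1.62%, 1.70% and 1.87%. Saline knockout mouse 3 stood alone above the rest, and the other 18 mice overlapped across all 4 groups, from 1.49% to 1.98%. Counting error was negligible at this depth, since the 95% Wilson interval of each share reached at most 0.00375 percentage points to either side. The group means were 1.72 ± 0.175% in amphetamine knockout (n = 4), 1.96 ± 0.499% in saline knockout (n = 5), 1.63 ± 0.102% in amphetamine control (n = 5) and 1.70 ± 0.103% in saline control mice (SD, n = 5). Without mouse 3, the saline knockout mean was 1.74%.

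**Figure D2:**
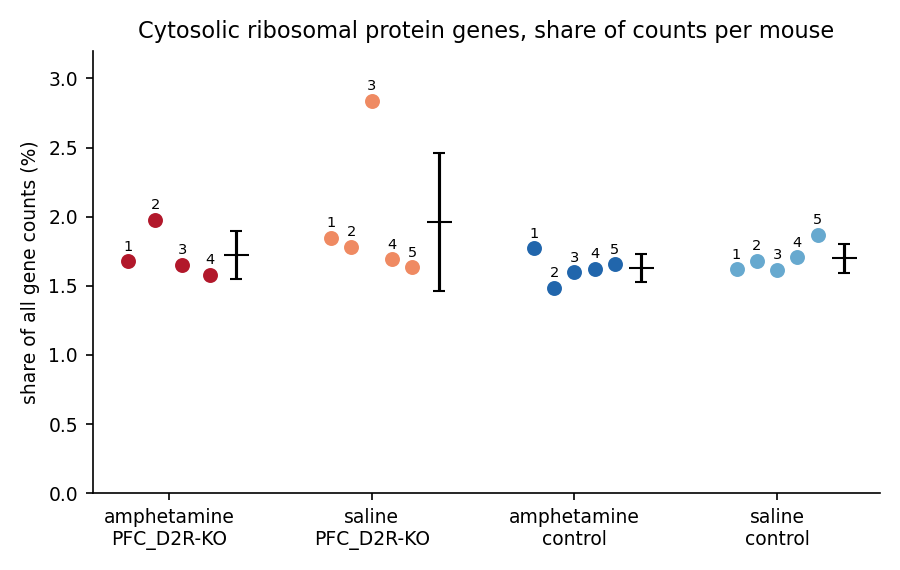
Share of all gene counts taken by the 84 ribosomal protein genes in each mouse (points, with the mouse number in its group) and mean ± SD per group (bars at the right of each group). Saline knockout mouse 3, at 2.84%, lies above the 1.49% to 1.98% of the other 18 mice.

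The excess in that library extended over nearly the whole family. Saline knockout mouse 3 had the highest CPM of all 19 libraries for 82 of 83 members. The share of all genes for which it was the highest is not given here, so this count alone does not set the family apart. On the log2 scale it lay a median of 0.70 above the median of its own group, with an interquartile range of 0.64 to 0.77. Smallest were Rpl3l (0.14) and Rpl7l1 (0.18), the muscle paralog and the diverged copy of Rpl7, and next to them was the small-subunit gene Rps15a (0.38). Largest was the stalk gene Rplp1 (0.89), and Rpl39, which lines the exit tunnel of the large subunit, was at 0.88. The median was 0.71 over 30 members with a C or T run at the start and 0.70 over 33 without. Relative to each gene's mean over 19 libraries, the median over members was 0.75 in this library and from -0.20 to 0.16 in the other 18. The lowest of these was amphetamine control mouse 2 and the highest saline control mouse 5. Over all 21513 genes tested, the median in saline knockout mouse 3 was 0.02.

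**Figure D3:**
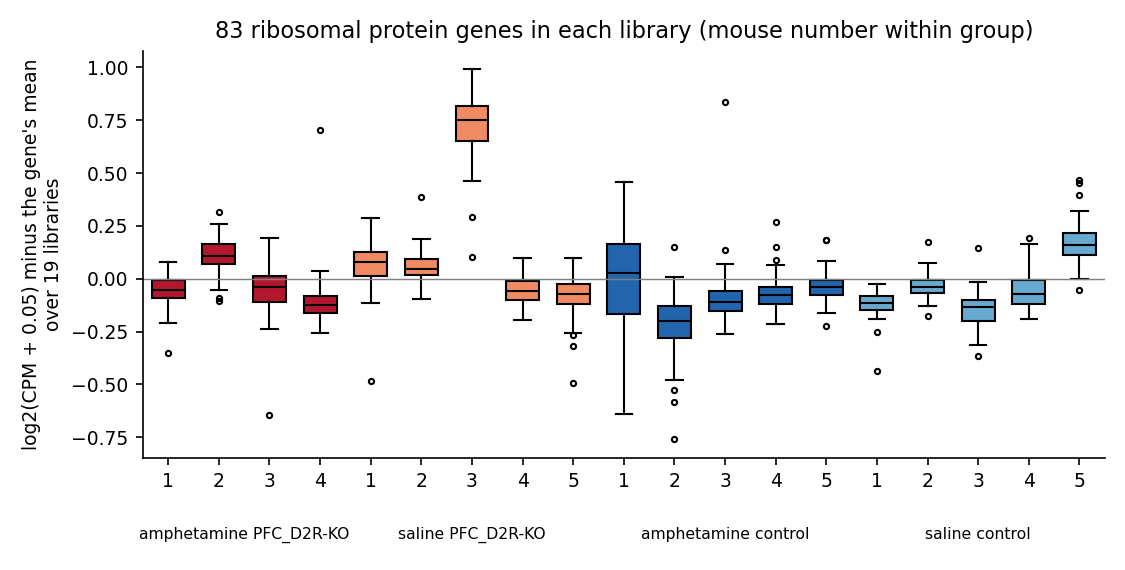
Deviation of 83 ribosomal protein genes from their own mean over the 19 libraries (log2 of CPM + 0.05), as a box per library with the median, the quartiles, whiskers and single genes beyond them. The box of saline knockout mouse 3 is centred on 0.75 and those of the other mice on -0.20 to 0.16; amphetamine control mouse 1 has the tallest box.

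Other genes moved in the same library, and their part in the result was not tested. Against the 19-library mean, the median log2 deviation in saline knockout mouse 3 was 0.67 for 38 short respiratory chain messages (-0.18 to 0.09 in the other 18 libraries), 0.50 for 78 mitochondrial ribosomal protein genes (-0.07 to 0.07) and 0.67 for 14 host genes of small nucleolar RNAs (-0.21 to 0.38). Translation initiation factors (29 genes) stood at 0.29, ribosome biogenesis factors (36) at 0.20 and RNA polymerase I genes (14) at 0.15. The mTOR pathway and regulators of ribosomal protein messages (25 genes) stood at -0.15, and their summed level was the lowest of all libraries. Blood markers (5 of 5 detected, 0 at zero) summed to 421 CPM there, the highest of the 19 (51.0 to 259 in the others). Their median deviation was 1.88, against -1.15 to 1.18 in the other 18. By group, the sums were 58.6 to 187 CPM in amphetamine knockout and 66.0 to 421 in saline knockout mice, this library included. They were 51.0 to 142 in amphetamine control and 93.8 to 259 CPM in saline control mice. Astrocyte markers (10 of 10 detected) summed to 2793 CPM there, the lowest of the 19 (3307 to 4237 in the others). Their median deviation of -0.04 lay inside the range of the other 18 (-0.17 to 0.23). Oligodendrocyte markers (10 of 10) summed to 7546 CPM, the highest (4218 to 7192 in the others). Ependymal markers (10 of 10) summed to 68.9 CPM, also the highest but close to the next (20.03 to 68.0 in the others). Microglial markers (11 genes) summed to 649 CPM, inside the range of the others (415 to 679). Their median deviation was 0.38, against -0.30 to 0.15 in the other 18. The mitochondrially encoded share of counts was the highest there, at 6.25%, with 6.15% in saline control mouse 5. In summed CPM these 13 genes stood at 63194 there, below the 63649 of the highest other library. In such bulk tissue, fewer cells of a type and less RNA per cell cannot be told apart.

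Gene length went with the deviation as well. Exon length implied by the ratio of counts to FPKM was used to sort genes, and the median log2 difference between saline knockout mouse 3 and its group median was taken in each class. For genes outside the family it was 0.50 under 700 bp, 0.52 from 700 to 1000, 0.41 from 1000 to 1500, 0.22 from 1500 to 2500, 0.00 from 2500 to 4000 and -0.27 over 4000 bp. Ribosomal protein genes in the same classes had 0.75, 0.72, 0.70, 0.64, 0.72 and 0.51, with 17, 18, 22, 15, 8 and 2 members. Outside the family, the median of short genes was thus higher in this library and that of the longest genes lower, and the members lay above other genes of their length class in all 6 classes. Implied length was not checked against the messages present in striatum, which may be shorter. The 2 members over 4000 bp, for example, were Rps15a (5179 bp) and Rps24 (4059 bp). Comparing members with other genes of a class is limited by this. The part of length in the members' difference was not tested further.

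**Figure D4:**
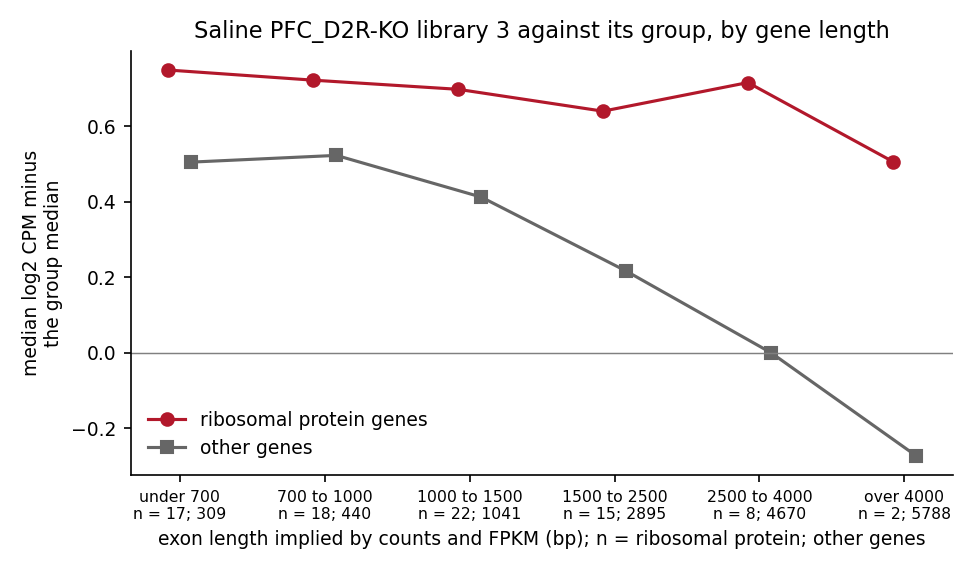
Median log2 CPM of saline knockout mouse 3 minus its group's median, for ribosomal protein genes (circles) and all other genes (squares) with a mean level of at least 1 CPM, by class of implied exon length in bp. Other genes run from 0.50 in the shortest class to -0.27 in the longest, and ribosomal protein genes stay between 0.51 and 0.75.

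A library of another kind was amphetamine control mouse 1, in which the members did not move together. The interquartile range of their deviations was 0.33 there, against 0.15 in amphetamine control mouse 2, 0.17 in saline knockout mouse 3 and 0.06 to 0.12 in the other 16 libraries. In this library Rpl31, Rps27rt, Rpl27 and Rpl39 were among the lowest, at -0.64, -0.47, -0.46 and -0.37 from their means. Highest were Rps20, Rpl22l1, Rpl41, Rps3a1 and Rps6, the small-subunit protein phosphorylated by S6 kinase, at 0.46, 0.39, 0.37, 0.35 and 0.28. Thus it held the highest level of the 18 libraries other than saline knockout mouse 3 for 22 members, and together with amphetamine control mouse 2 the lowest 2 of 19 for 13 members. The share of all genes at these extremes is not given here, so the counts may not be particular to the family. Amphetamine control mouse 1 was also the library with the fewest counts (57003408). The mitochondrially encoded share was 3.03% in mouse 1 and 3.77% in mouse 2, against a range of 3.03% to 6.25% over all libraries.

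Within groups, the members' spread was close to that of all genes, and below it once saline knockout mouse 3 was left out. The SD of log2 CPM within groups had a median of 0.21 over the 83 members and 0.24 over all 21513 genes. Without saline knockout mouse 3 it was 0.12 and 0.22. Rpl7l1 varied least of all members (0.07), and Rpl3l, Rps27rt, Rps27, Rpl39 and Rpl31 most, Rpl3l at 0.42 and Rps27rt at 0.35.

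Under amphetamine, knockout mice had lower values for nearly all members than saline knockout mice did, but no member passed the test and 1 library set the size. edgeR called 0 of 83 members at an adjusted p under 0.05, where the share of all tested genes called was 0.00465%. The log2 fold change was below 0 for 82 members, with a median of -0.21 against -0.01 over all genes tested, of which 48.9% were above 0. At an unadjusted p under 0.05, 8 members were lower and 0 higher, against 6% of all genes lower and 6.09% higher. DESeq2 and limma voom also called 0 members. Here and below, the share of all genes that these fits called is not given, so their count of 0 says little alone. The smallest adjusted p was 0.305. Without saline knockout mouse 3, 58 members were below 0 and 25 above (49.9% of all genes above), the median was -0.02, and 1 member was lower at an unadjusted p under 0.05 (4.37% of all genes). Again none was called, with 0.014% of all genes called.

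Rpsa, a small-subunit protein also known as a laminin-binding receptor, led this comparison. It had 493, 529, 483 and 481 CPM in amphetamine knockout mice and 552, 562, 886, 528 and 564 CPM in saline knockout mice. Mouse 2 of the amphetamine group lay just above the lowest saline mouse, and the groups overlapped only there. The log2 fold change was -0.32 ± 0.12 (SE; edgeR adjusted p = 0.305) and, without saline knockout mouse 3, -0.15 ± 0.06 (adjusted p = 0.449). Rpl7l1 was the only member whose groups did not overlap, where 2.84% of all genes had amphetamine knockout mice wholly below saline knockout mice. Its values were 47.1, 47.9, 49.2 and 44.9 CPM in amphetamine knockout mice and 52.0, 51.9, 58.7, 50.6 and 49.98 CPM in saline knockout mice, a log2 fold change of -0.15 ± 0.06 (edgeR adjusted p = 0.355), and -0.11 ± 0.05 without saline knockout mouse 3. Rpl27a, in the large subunit, came next by p, with -0.27 ± 0.12 (adjusted p = 0.376) and -0.11 without saline knockout mouse 3, and Rpl3l was the only member above 0 (0.14 ± 0.29). The stalk genes Rplp0, Rplp1 and Rplp2 stood at -0.19, -0.23 and -0.26, with a median of -0.04 without that library, and none was called.

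In control mice, amphetamine went with smaller and mixed differences. Of the 83 members, edgeR called 0 (0.00465% of all genes were called), and 0 had an unadjusted p under 0.05 in either direction, against 4.89% of all genes higher and 6.95% lower. Log2 fold changes were above 0 for 22 members (48.4% of all genes), with a median of -0.04 against -0.01 over all genes, and the smallest adjusted p was 0.571. DESeq2 and limma voom called 0 members too. Without amphetamine control mouse 1, 8 members were above 0, and without saline control mouse 5, 43 were. The sign shared by most members thus rested on which mice were included.

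The small-subunit gene Rps15a had the smallest p in control mice. It had 173, 152, 152, 150 and 155 CPM in amphetamine control mice and 161, 159, 168, 175 and 206 CPM in saline control mice. Amphetamine control mouse 1 lay inside the saline range and the other 4 below it. The log2 fold change was -0.15 ± 0.10 (edgeR adjusted p = 0.571). Rpl27, of the large subunit, had 67.4, 68.0, 83.8, 88.2 and 95 CPM in amphetamine control mice and 83.3, 95.7, 79.7, 94.7 and 114 CPM in saline control mice. It was low in amphetamine control mice 1 and 2 and inside the saline range in the other 3, with a log2 fold change of -0.21 ± 0.15 (edgeR adjusted p = 0.608). Rpl22, Rps2 and Rpl41, the smallest ribosomal protein, led the other direction with 0.11, 0.10 and 0.11 (adjusted p from 0.729 to 0.807). Single mice set the size of these values. Without amphetamine control mouse 1, Rpl41 was at 0.03 and Rps2 at 0.07, and without saline control mouse 3 Rpl22 was at 0.06. Without saline control mouse 5, Rps15a was at -0.09 and Rpl27 at -0.14.

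Knockout mice under saline had higher values than saline control mice for nearly all members. The log2 fold change was above 0 for 82 of 83, with a median of 0.22 against 0.00 over all genes tested, of which 51% were above 0. edgeR called 0 members, and 0% of all genes were called. At an unadjusted p under 0.05, 14 members were higher and 0 lower, against 3.79% of all genes higher and 4.15% lower, and DESeq2 and limma voom called 0. Without saline knockout mouse 3, 64 members were above 0 (48.2% of all genes), the median was 0.03, and 1 member was higher at an unadjusted p under 0.05 (1.66% of all genes). Without all of the 5 libraries that an earlier analysis of these data had set apart (amphetamine knockout 2 and 3, saline knockout 3, amphetamine control 3 and saline control 5), 80 members were above 0 with a median of 0.09. The size of the shift under saline therefore rested on saline knockout mouse 3, and no member differed between groups by the test.

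Rpl36al had the smallest p under saline. Its values were 46.1, 46.5, 78.6, 43.6 and 44.8 CPM in saline knockout mice and 38.6, 38.2, 39.4, 44.2 and 45.6 CPM in saline control mice. Both groups overlapped between 43.6 and 45.6 CPM. The log2 fold change was 0.33 ± 0.12 (edgeR adjusted p = 0.614) and 0.13 ± 0.07 without saline knockout mouse 3 (adjusted p = 0.986). Rpl7l1 was at 0.16 ± 0.06 (edgeR adjusted p = 0.614), and at 0.11 ± 0.05 without that library, where it was the member with an unadjusted p under 0.05. Its saline control values were 45.3, 46.6, 45.8, 51.8 and 46.2 CPM, so that mouse 4 alone lay inside the saline knockout range. Rplp1 stood at 0.34 ± 0.14 and Rpsa at 0.27 ± 0.11 (adjusted p = 0.614 each), and at 0.11 ± 0.07 and 0.10 ± 0.06 without the library.

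Under amphetamine, knockout and control mice differed little across the family, and this comparison does not use saline knockout mice. Of 83 members, 55 were above 0 (51% of all genes), with a median log2 fold change of 0.05 against 0.00 over all genes. edgeR called 0 (0% of all genes), as did DESeq2 and limma voom. At an unadjusted p under 0.05, 1 member was higher and 0 lower, against 7.44% of all genes higher and 5.34% lower. Leaving saline knockout mouse 3 out of the shared estimate of spread gave 6 members higher at an unadjusted p under 0.05 (8.64% of all genes), 56 above 0 (51.5% of all genes) and a median of 0.05. The share of members past that limit was below the share of all genes both times.

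Rpl39 was among the 3 members with the smallest p for a higher level in knockout mice under both treatments. It had 62.6, 73.7, 67.8 and 58.0 CPM in amphetamine knockout mice and 45.8, 43.6, 49.5, 53.7 and 59.7 CPM in amphetamine control mice. Under saline it had 67.1, 64.1, 118, 61.7 and 54.9 CPM in knockout mice and 49.7, 55.6, 48.3, 52.4 and 69.9 CPM in control mice. Knockout mice were the higher in most but not all cases, since amphetamine control mouse 5 lay above knockout mouse 4, saline control mouse 5 above all saline knockout mice but mouse 3, and saline control mouse 2 above saline knockout mouse 5. The log2 fold change was 0.38 ± 0.17 under amphetamine (edgeR adjusted p = 0.37) and 0.41 ± 0.16 under saline (adjusted p = 0.614). Averaged over treatments it was 0.39 ± 0.12 with an unadjusted p of 0.00354 and an adjusted p of 0.325. Without saline knockout mouse 3 these became 0.38 ± 0.11 (adjusted p = 0.168), 0.16 ± 0.11 (adjusted p = 0.989) and 0.27 ± 0.08 (adjusted p = 0.338). Rps15a and Rpl27 followed Rpl39 under amphetamine at 0.19 ± 0.10 and 0.24 ± 0.16 (adjusted p of 0.445 and 0.553), and Rpl41 and Rpl26 led the lower side at -0.15 and -0.12. Without amphetamine control mouse 1 these last were -0.06 and -0.05, and without amphetamine knockout mouse 2 Rps15a was at 0.11.

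**Figure D5:**
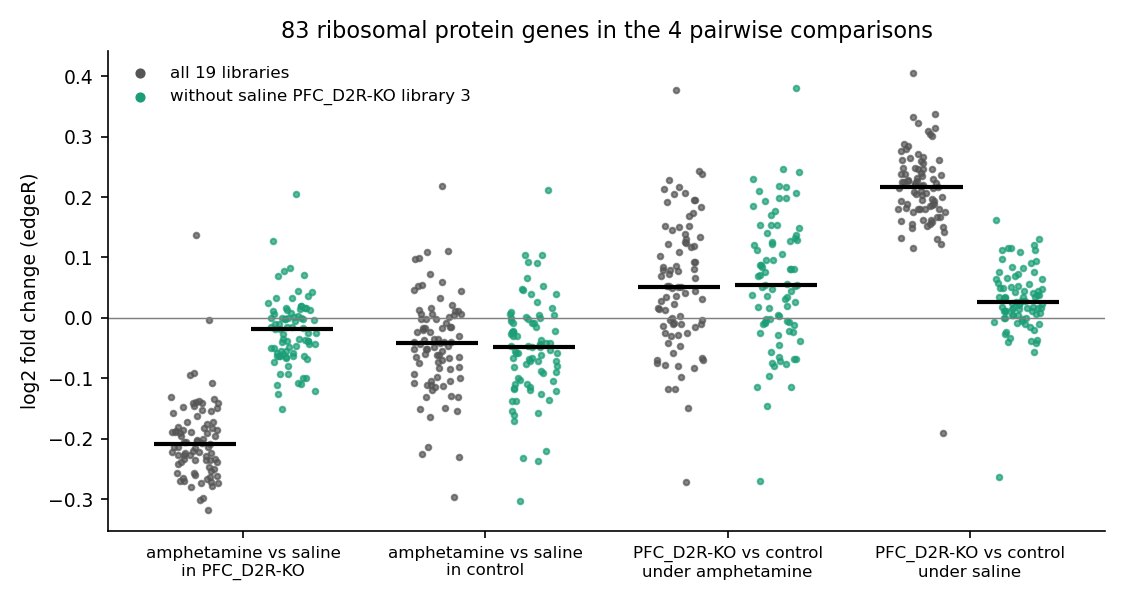
Log2 fold changes of 83 ribosomal protein genes in the 4 pairwise comparisons, fitted over all 19 libraries (grey) and without saline knockout library 3 (green), with lines at the medians. The medians of the comparisons that use saline knockout mice go to -0.02 in place of -0.21 for amphetamine against saline in knockout mice, and to 0.03 in place of 0.22 for knockout against control under saline, when that library is left out.

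Whether the amphetamine response differed between genotypes was tested directly as the difference of both responses. edgeR called 0 of 83 members and 0% of all genes, and 0 members had an unadjusted p under 0.05, against 5.2% of all genes higher and 4.05% lower. The median difference was -0.17 with 4 members above 0 (50.9% of all genes), and 0.02 with 50 above 0 without saline knockout mouse 3. For Rpl39 the difference was -0.03 ± 0.24 (approximate 95% interval from -0.49 to 0.44), so its response was not shown to differ between genotypes nor to be alike. Averaged over genotypes, amphetamine against saline also gave 0 called members (0.149% of all genes were called), with 2 members above 0 (47.5% of all genes) and a median of -0.13. Over all 19 libraries 5 members were lower and 0 higher at an unadjusted p under 0.05, against 7.78% of all genes lower and 6.69% higher. Without that library the median was -0.04. Averaged over treatments, knockout against control gave 0 called members (0% of all genes), 82 members above 0 (51.9% of all genes) and a median of 0.13. At an unadjusted p under 0.05, 16 members were higher (6.54% of all genes) and 0 lower (5.1% of all genes). Without the library, 60 members were above 0 (50.2% of all genes), the median was 0.05 and 6 were higher at that limit (5.88% of all genes). DESeq2 and limma voom called 0 members in each of these 3 comparisons.

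In the authors' deposited tables, all 84 members are listed in each of the 3 comparisons and 0 have an adjusted p under 0.05. The authors' deposited table of amphetamine against saline in control mice calls 4.21% of its genes, that in knockout mice 0.665% and that of knockout against control under saline 0.00439%. For amphetamine against saline, the members' median log2 fold change in the authors' deposited tables is -0.20 in knockout mice (smallest adjusted p 0.46) and -0.04 in control mice (smallest adjusted p 0.367). For knockout against control under saline, the median in the authors' deposited table is 0.21 (smallest adjusted p 0.9). By the authors' deposited table, 3 members have an unadjusted p under 0.05 for knockout against control under saline, and 0 in the other comparisons. Rpl39 is at 0.40 ± 0.20 in the authors' deposited table of knockout against control under saline.

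Other genes of the translation apparatus were taken from lists. Rack1, on the head of the small subunit, belongs to the ribosome although the symbol rule does not catch it. It was not called and was at -0.22 ± 0.10 for amphetamine against saline in knockout mice (edgeR adjusted p = 0.397), and at -0.08 ± 0.05 without saline knockout mouse 3. Other translation genes with TOP messages (19 tested) had 0 called, 17 below 0 and a median of -0.13 for amphetamine against saline in knockout mice, and 17 above 0 and a median of 0.11 for knockout against control under saline. Without saline knockout mouse 3 these medians were -0.04 and 0.02. Elongation factor subunit Eef1g led both, at -0.29 ± 0.10 (adjusted p = 0.291) and 0.26 ± 0.09 (adjusted p = 0.614), and without that library it was at -0.16 and 0.12. Naca, which guides nascent chains at the tunnel exit, was second under saline at 0.27 ± 0.11, and at 0.12 ± 0.08 without the library.

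Translation initiation factors (29 tested, 0 called) and ribosome biogenesis factors (36 tested, 0 called) had medians of -0.09 and -0.07 for amphetamine against saline in knockout mice, and 0.09 and 0.03 for knockout against control under saline. RNA polymerase I genes (14 tested, 0 called) had -0.06 and 0.00. Host genes of small nucleolar RNAs (14 tested, 0 called) had -0.06 and 0.10. Genes of the mTOR pathway and regulators of ribosomal protein messages (25 tested, 0 called) had 0.04 and -0.06. Some of these medians moved toward 0, and others past or away from 0, when saline knockout mouse 3 was left out. Without it they were -0.03 and 0.02 for initiation factors, -0.03 and -0.04 for biogenesis factors, and -0.03 and -0.04 for RNA polymerase I genes. The host genes turned to 0.16 and -0.08, and the mTOR and regulator list to -0.04 and -0.02. In that list, Rps6kb1, the S6 kinase that acts on Rps6, had 0.21 ± 0.07 for amphetamine against saline in knockout mice (edgeR adjusted p = 0.282) and 0.18 ± 0.06 in control mice (adjusted p = 0.269). Rps6kb2, the other S6 kinase, was at -0.33 ± 0.09 for knockout against control under saline (adjusted p = 0.614). Sesn2, a stress-induced inhibitor of mTOR complex 1, was at -0.37 ± 0.11 for amphetamine against saline in control mice (adjusted p = 0.212). It was at 0.39 ± 0.12 for knockout against control under amphetamine (adjusted p = 0.227). Both Sesn2 values use the same amphetamine control mice, with opposite sign, and are not independent. For Rps6kb1, Rps6kb2 and Sesn2, values with single libraries left out are not given here.

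For comparison, 38 short respiratory chain messages had medians of -0.23 for amphetamine against saline in knockout mice and 0.21 for knockout against control under saline, and 78 mitochondrial ribosomal protein genes -0.17 and 0.15, with 0 called in either list. These medians lay close to the -0.21 and 0.22 of the cytosolic family. Without saline knockout mouse 3 they were -0.06 and 0.04, and -0.07 and 0.05.

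As markers of the tissue, 14 of 14 genes of striatal projection neurons were detected in each group and 0 were at zero. Their summed level was 2457 to 6222 CPM in amphetamine knockout, 3571 to 6502 in saline knockout, 6257 to 8132 in amphetamine control and 4234 to 5967 CPM in saline control mice. Markers of hypothalamic and septal neurons (12 of 12 detected) summed to 185 to 347 CPM in amphetamine knockout, 299 to 509 in saline knockout, 107 to 228 in amphetamine control and 197 to 442 CPM in saline control mice. Ependymal markers (10 of 10 detected) summed to 36.0 to 57.5 CPM in amphetamine knockout, 35.3 to 68.9 in saline knockout, 20.03 to 38.6 in amphetamine control and 43.2 to 59.9 CPM in saline control mice. Cortical markers (12 of 12 detected) summed to 277 to 1425 CPM in amphetamine knockout, 289 to 722 in saline knockout, 551 to 1222 in amphetamine control and 267 to 811 CPM in saline control mice. Choroid plexus markers (10 of 10 detected) summed to 724 CPM in amphetamine knockout mouse 2 and to 51.6 to 59.2 in the other amphetamine knockout mice, against 66.7 to 93.9 in saline knockout, 34.6 to 81.3 in amphetamine control and 55.1 to 82.5 CPM in saline control mice. These sums varied within and between groups, and their part in the members' values was not tested.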

How the data were processed

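Striatal RNA of 19 mice was sequenced, 1 library per mouse, and groups were taken from the titles and treatment labels. The authors deposited whole-number gene counts, made with HTSeq 0.6.1p2 after FastQC 0.11.5, Trim Galore 0.5.0 and STAR 2.6.0c on GRCm39, per the submitters' processing notes, which give no order or settings. Sources used here give neither the annotation release nor the strand setting, nor how reads with several matches were treated. FPKM values in the authors' deposited tables were used for levels per length; they were identical between tables (largest difference 0). The authors' deposited log2 fold changes, p-values and adjusted p-values come from DESeq2 (1.26.0s, in R 3.6.1) per the file headers and the submitters' processing notes, and were copied. Mean signal per gene and a test score from DESeq2 in the authors' deposited tables, per the file headers, were not used.

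Library totals ran from 57003408 to 85536346 counts. Counts were filtered with filterByExpr (21513 genes left), scaled by TMM and fitted in edgeR 4.0.16 (R 4.3.3) by robust quasi-likelihood as 4 group means over all 19 libraries, with 7 contrasts. P-values were adjusted by Benjamini-Hochberg over all genes tested, with 0.05 as the limit for a call. Unless another source is named, adjusted p-values come from this edgeR test. SEs were obtained by dividing each log2 fold change by the square root of its F statistic. Log2 CPM uses a prior count of 2. The fit was tested on simulated counts. No library pair was a copy (smallest chi-square per degree of freedom 11.2). A further library of the amphetamine knockout group, left out by the authors according to their table, was not used here.

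Alternatives were other scalings, no filter, DESeq2 1.42.0, limma 3.58.1 voom, a block for the mouse number of the titles, the compared groups alone, and leaving out libraries. Members and lists were chosen with earlier results of these data known, so no list test was run. Members named in the text are, per pairwise comparison, the 3 with the smallest p in each direction, the 5 highest and 5 lowest by FPKM, the 5 most variable, paralog pairs, Rpsa and the stalk genes; from a described list the 2 with the smallest p could be named. Some results that this rule would name are not reported here. Rps20, Rps3a1 and Rps6 were named after their values were seen. Sequences are RefSeq's (GRCm38.p6), a build other than that of the counts, and were matched by symbol. Wilson intervals cover counting error only.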

Additional observations from a re-analysis of the deposited data

Results flagged for a closer look

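A library was marked where the gap between the highest or lowest mouse of a group and its nearest neighbour, as a fraction of the group's range, passed Dixon's 95% limit (0.829 for 4 mice, 0.71 for 5). Chance marks about 1 in 20 groups. Of 160 groups of values, 46 were marked, 30 of them at saline knockout mouse 3, always as the highest. Genes of the family rise and fall together in a library, so these marks are not independent.

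In saline knockout mouse 3 the gap fraction was 0.823 for the ribosomal protein share of counts, 0.868 for the members' summed CPM, 0.805 for other TOP genes, 0.841 for initiation factors, 0.775 for biogenesis factors, 0.745 for RNA polymerase I genes, 0.866 for snoRNA hosts, 0.822 for respiratory chain messages and 0.931 for mitochondrial ribosomal proteins. For named large-subunit genes it was 0.877 (Rpl13a), 0.84 (Rpl19), 0.737 (Rpl22), 0.879 (Rpl22l1), 0.767 (Rpl27), 0.757 (Rpl27a), 0.842 (Rpl3), 0.779 (Rpl36a), 0.917 (Rpl36al), 0.806 (Rpl39), 0.929 (Rpl41) and 0.764 (Rpl7l1). For stalk and small-subunit genes it was 0.797 (Rplp0), 0.835 (Rplp1), 0.885 (Rplp2), 0.824 (Rps15), 0.759 (Rps15a), 0.82 (Rps2), 0.829 (Rps21), 0.714 (Rps27l) and 0.899 (Rpsa). Over all 84 members, 75 were marked there. All genes were not examined in this way, so no share over all genes stands beside this count or the counts below.

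Saline control mouse 5 was the highest of its group for other TOP genes (0.803), snoRNA hosts (0.74), Rpl19 (0.74), Rpl22l1 (0.92), Rpl3 (0.888), Rps21 (0.917), Rps23rg1 (0.735) and Rps27 (0.722), and saline control mouse 4 for Rpl7l1 (0.795). Amphetamine control mouse 1 was the highest for Rpl13a (0.762), Rpl22l1 (0.917), Rpl41 (0.811) and Rps15a (0.766). Amphetamine knockout mouse 2 was the highest for other TOP genes (0.842), snoRNA hosts (0.912) and Rpl13a (0.883). Over all 84 members, 18 were marked at amphetamine control mouse 1 and 18 at saline control mouse 5.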

How the results depend on the processing

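No member was called in any of the 7 comparisons under any alternative run. The share of all genes called is not given for most of these runs, so this absence of calls says little alone. The limit for a move was 0.11, the median over the 4 groups of the SD between mice of the per-library member median. Without the 5 libraries set apart, the members' median log2 fold change moved by more than this in 2 comparisons. It went to -0.098 for amphetamine against saline in knockout mice and 0.090 for knockout against control under saline. Both use saline knockout mice, whose own SD was larger, at 0.34. Leaving out each of the 19 libraries in turn gave medians from -0.26 to -0.018 and from 0.027 to 0.27 for these comparisons, and from -0.21 to 0.015 for the difference of responses between genotypes, with the value nearest or past 0 each time without saline knockout mouse 3. The ranges were -0.07 to 0.00 for amphetamine against saline in control mice, 0.01 to 0.09 for the genotypes compared under amphetamine, -0.16 to -0.04 for amphetamine averaged over genotypes and 0.05 to 0.16 for knockout averaged over treatments. Rpl3l, with under 1 CPM, was at 0.23 in the knockout comparison under amphetamine without the 5 libraries, and ranged from -0.24 to 0.31 for amphetamine against saline in knockout mice when single libraries were left out. The cause was not tested. With a block for the mouse number of the titles, the medians were -0.19 and 0.20 for amphetamine against saline in knockout mice and knockout against control under saline, -0.04 for amphetamine in control mice, and again no member was called. Mice of the same title number did not deviate together (1 of 27 pairs with a correlation over 0.1, range -0.35 to 0.15). Of 19 libraries, 2 were closest to their own title number, so the title numbers were not taken to pair the mice. The submitters' sample names number the knockout mice otherwise, and some mice that share a title number differ there. A pairing by those names was not examined, by these correlations or by the block. Near-identical copies, bulk tissue and groups of 4 or 5 mice limit what single members can show.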
